A study of Mus musculus with 24 samples.

Results

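The mouse genes described here drive cells from G1 into S phase or hold them back, copy the DNA, or carry the cell through mitosis. They are 43 genes chosen by name, of the 13674 genes that the platform annotation names on the arrays of the series. By role they were 10 genes of the G1/S step (called drivers here, although Rb1 among them is a brake) and 4 inhibitors of cyclin-dependent kinases (CDKs). The others were 13 replication genes, 14 mitosis genes, and Donson and Mis18a. Donson and Mis18a lie in the chromosome segment that is trisomic in Ts1Cje mice and are described apart. A probe set (a group of short array probes for one transcript) naming the gene alone was found for 41 members, and 39 were bright enough to test. Ccne2 and Mcm6 were too dim, Ccnb1 had no such probe set, and the probe sets of Tyms also name the pseudogene Tyms-ps, so Tyms is given no value.

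Brain RNA of 2N mice, with 2 copies of each autosome, was compared with brain RNA of Ts1Cje mice, a model of Down syndrome. Ts1Cje mice carry an extra copy of distal mouse chromosome 16, attached to chromosome 12, in every cell, and the Sod1 gene at the edge of the extra copy is disrupted. Each genotype had 6 samples on each of 2 Affymetrix designs (MGU74A, array A, and MGU74B, array B), or 24 arrays. Brain region, age and sex are not in the labels, and nothing there ties a sample to one animal. The p-values therefore reflect variation among these samples only, some of which may be technical. In whole-tissue RNA, fewer dividing cells and less RNA per dividing cell cannot be told apart. Sequence-sharing probes also limit a few members. The probe sets used for Mcm3, E2f1 and Mis18a carry the suffixes s, f and r. Affymetrix gave these to sets that may detect related transcripts or that broke a design rule. The probe set used for Plk1 carries a further suffix, g.

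Cells enter S phase when cyclin D with Cdk4 or Cdk6, and then cyclin E with Cdk2, phosphorylate the Rb protein and release E2F factors, which switch on genes for DNA copying. Replication origins are licensed by loading a ring of the proteins Mcm2 to Mcm7, the replicative helicase, which Cdc45 later helps to activate. Mitotic genes are switched on after S phase, and in resting cells a repressor complex holds many of them down through a promoter sequence called the cell cycle genes homology region (CHR). In brain the replication and mitosis genes mark dividing progenitors, which are frequent during development and rare in the adult.

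No member passed the test in either direction on either array. On array A 0 of 35 tested members were called by limma at an adjusted p of 0.05, where 0.0966% of all 9316 tested probe sets were called, all of them higher in Ts1Cje (0.0966% higher and 0% lower). On array B 0 of 5 were called, beside 0.0645% of 9308 probe sets (0.0645% higher and 0% lower). Before adjustment, p was under 0.05 for 2 members lower in Ts1Cje on array A, Mcm3 and Cdkn2c, and for none that was higher. The same held for 1.72% of all probe sets in the lower direction, 1.91% in the higher and 3.63% in either. Among array B members Donson and Cenpe had an unadjusted p under 0.05, both higher in Ts1Cje, beside 2.14% of all probe sets higher, 2.11% lower and 4.24% in either direction. The array A count and, through Cenpe, the array B count hung on single samples. The array A count was 0 when either 2N replicate 3 or Ts1Cje replicate 1 was left out. It was 1 without 2N replicate 1, 4, 5 or 6 or Ts1Cje replicate 2, 3, 4 or 6. The array B count was 1 without 2N replicate 1, 2 or 4 or Ts1Cje replicate 3, 4, 5 or 6. Donson stayed under 0.05 in every alternative analysis (highest unadjusted limma p 0.0376), so these changes were in Cenpe.

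The sizes of the differences were small against the spread. Of the 34 disomic members tested on array A, 22 lay below 0 (64.7%), with a median log2 difference (Ts1Cje minus 2N) of -0.07. Among all tested probe sets there 51.1% lay below 0, and their median was -0.0042. Standard errors of the members ran from 0.0740 to 0.648 (median 0.192), and the 95% interval stayed within 1.5-fold either way for 18 of the 34. The samples of the 2 genotypes overlapped for every one of the 34, where 0.107% of all array A probe sets had every Ts1Cje sample below every 2N sample and 0.193% had every one above. On array B 4 disomic members were tested and 1 lay below 0, beside 50.7% of all probe sets. By role, 10 of 11 replication members lay below 0 and 6 of 8 G1/S drivers lay above it, the brake gene Rb1 included. This contrast was not tested.

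**Figure D1:**
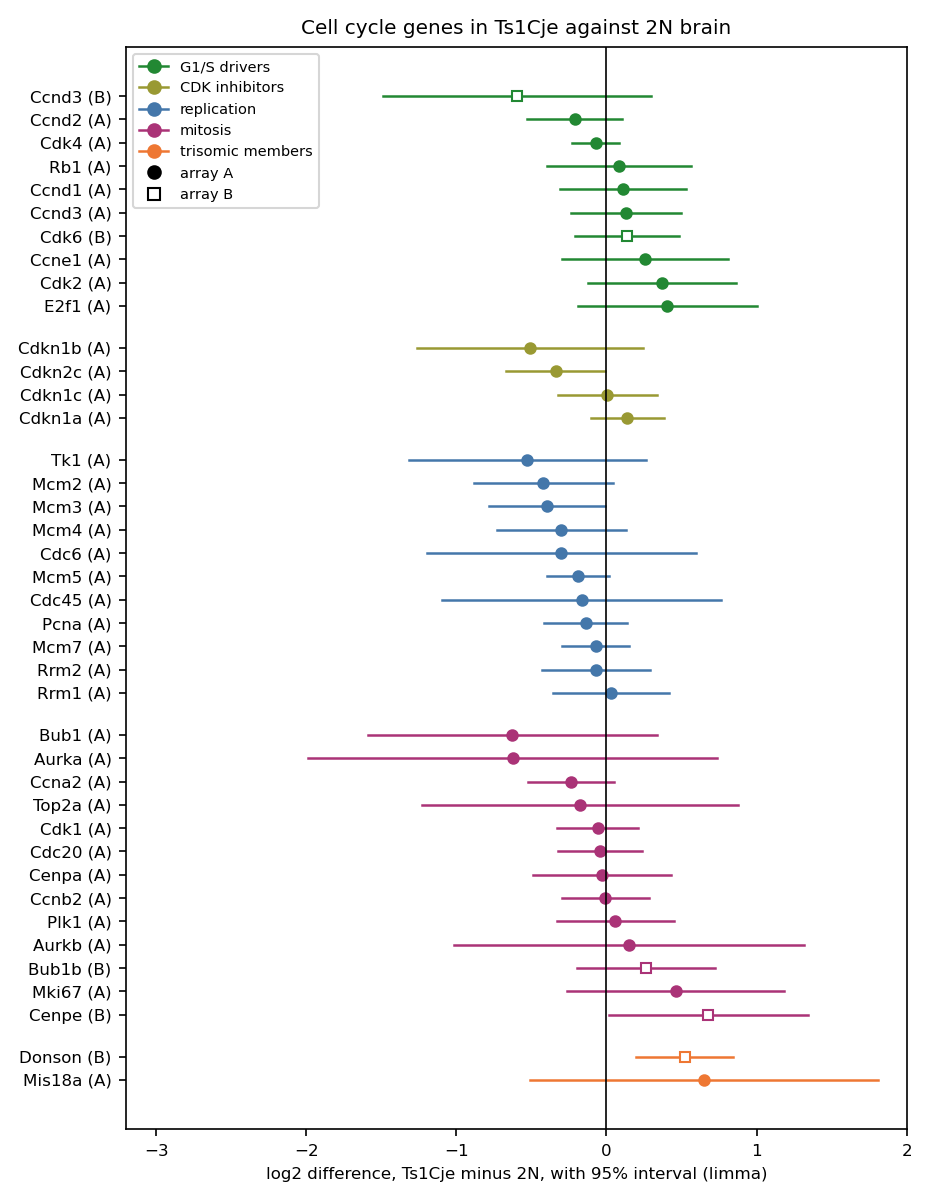
Log2 difference between Ts1Cje and 2N brain (x axis) for each tested member (y axis, with its array), with the 95% interval of the limma fit as a line and 6 samples per genotype. Most intervals cross 0, those of 10 of the 11 replication members lie mainly to the left, and Donson stands to the right with an interval from 0.20 to 0.84.

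Among the drivers of the G1/S step, the tested members of the cyclin E and E2F arm lay above 0 and none passed. Cdk2, the kinase partner of cyclin E, had intensities of 8.28, 12.2 and 18.2 in 2N (lowest, median and highest of 6 samples) and of 12.8, 16.7 and 18.1 in Ts1Cje. All 6 Ts1Cje samples were above the 2N median, but the groups overlapped. Its log2 difference was 0.37 (SE 0.235, limma adjusted p = 0.99). A dimmer Cdk2 probe set was at 0.54 (SE 0.617). E2f1, the transcription factor released by Rb, ran from 6.75 over 11.3 to 18.2 in 2N and from 10.8 over 13.5 to 20.5 in Ts1Cje, with 5 of 6 Ts1Cje samples above the 2N median. It differed by 0.41 (SE 0.283), a fold of 1.32 whose interval of 0.876 to 2.00 holds both no change and a doubling. Ccne1, which encodes cyclin E1, was at 0.26 (SE 0.262), and this was -0.03 without 2N replicate 2, whose intensity of 17.4 was far below the others. The probe set of the other cyclin E gene, Ccne2, was dim in both genotypes, with means of 3.65 ± 1.28 in 2N and 3.31 ± 1.19 in Ts1Cje (SD, n = 6).

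The D cyclins, which pair with Cdk4 and Cdk6 and couple growth signals to the cycle, differed from each other in sign. Ccnd2, a D cyclin of neural progenitors, ran from 35.9 over 51.7 to 57.5 in 2N and from 33.2 over 41.0 to 51.7 in Ts1Cje. Every Ts1Cje sample lay below the 2N median, the highest only just, inside a wide overlap. The log2 difference was -0.21 (SE 0.1505, limma adjusted p = 0.99). Ccnd1 was at 0.11 (SE 0.199) by its brighter probe set and at -0.33 (SE 0.263) by its dimmer one, so its sign is not settled. Ccnd3 was at 0.13 (SE 0.174) on array A and, from a dim probe set, at -0.60 (SE 0.426) on array B. The array B value came from replicates 1 and 2: it was 0.05 without them, and both Ts1Cje samples concerned were at 2.16 and 2.40 against 5.75 and 12.5 in 2N.

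The kinases Cdk4 and Cdk6 and the brake protein Rb differed by less than their standard errors in their brightest probe sets. Cdk4 had the smallest standard error of all members. Its mean was 282 ± 15.9 (SD, n = 6) in 2N and 269 ± 25.2 in Ts1Cje, with a difference of -0.07 (SE 0.0740) with an interval of 0.853-fold to 1.06-fold. A dimmer Cdk4 probe set was at 0.23 (SE 0.134). Cdk6 was at 0.14 (SE 0.166) on array B, -0.04 without replicates 1 and 2. Rb1, the retinoblastoma gene, was at 0.08 (SE 0.227), with a dimmer probe set at -0.28 (SE 0.377). Its spread differed between genotypes: the 2N samples ran from 8.75 to 23.5 and the Ts1Cje samples only from 14.6 to 16.1, a contrast seen after the data were examined and not tested.

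The 4 CDK inhibitors, which hold cells out of S phase, were all tested on array A and split 2 and 2 around 0. Cdkn2c encodes p18, an inhibitor of Cdk4 and Cdk6. It ran from 22.4 over 31.2 to 35.0 in 2N and from 20.1 over 23.2 to 30.1 in Ts1Cje. All 6 Ts1Cje samples lay below the 2N median and 2 of them below every 2N sample. The log2 difference of -0.34 (SE 0.156, interval -0.67 to -0.01) had an unadjusted limma p of 0.0442, the smallest among disomic members on array A, and an adjusted p of 0.99. Its two-sided exact permutation p was 0.0325, or 0.9997 adjusted over all probe sets.

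Cdkn1b, the gene of the inhibitor p27, which accumulates as progenitors leave the cycle, was dim. It ran from 5.75 over 10.4 to 15.96 in 2N and from 4.37 over 6.73 to 12.4 in Ts1Cje, with 5 of 6 Ts1Cje samples below the 2N median, and differed by -0.51 (SE 0.357, limma adjusted p = 0.99). Replicates 1 and 2 carried much of this, at -1.09, against -0.22 in replicates 3 to 6. Cdkn1a, the p21 gene and a target of p53, ran from 40.1 over 45.7 to 51.9 in 2N and from 43.1 over 52.0 to 56.5 in Ts1Cje, a difference of 0.14 (SE 0.116). Its other probe set was at -0.36 (SE 0.233), so the 2 readings of p21 have opposite signs. Cdkn1c, the imprinted p57 gene, was at 157 ± 42.7 and 153 ± 18.0 (SD, n = 6), with a difference of 0.0064 (SE 0.158).

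Of the 4 roles on array A, replication genes showed the most uniform sign. Of the 13 members 11 were tested, 10 lay below 0 and 0 passed. The median log2 difference was -0.19, or 12.3% lower in Ts1Cje, against -0.0042 for all array A probe sets. The exception was Rrm1 at 0.03 (SE 0.184). Without 2N replicate 3 the median was -0.33, and without Ts1Cje replicate 1 it was -0.15.

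Within this group stand the 6 genes of the replicative helicase. They were set apart after their values had been seen, so their counts are a description. Mcm3 ran from 18.7 over 28.9 to 31.5 in 2N and from 15.8 over 20.3 to 26.2 in Ts1Cje. Every Ts1Cje sample was below the 2N median, 2 were below all 2N samples, and the other 4 lay within the 2N range. Its log2 difference of -0.40 (SE 0.184, interval -0.79 to -0.01) had an unadjusted limma p of 0.0452 and an adjusted p of 0.99. The exact permutation p was 0.0433, or 0.9997 adjusted over all probe sets. A dimmer Mcm3 probe set was at -0.34 (SE 0.481).

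Mcm2 ran from 17.3 over 26.9 to 38.5 in 2N and from 13.0 over 19.3 to 26.6 in Ts1Cje. Here too every Ts1Cje sample lay below the 2N median, while the 2N samples themselves spanned more than the difference. It differed by -0.42 (SE 0.218, unadjusted p = 0.0712, limma adjusted p = 0.99). Mcm5, read by a probe set well above the floor, ran from 83.9 over 90.1 to 102 in 2N and from 70.2 over 81.9 to 94.2 in Ts1Cje. 4 of 6 Ts1Cje samples lay below every 2N sample. Its difference was small and comparatively well measured, at -0.19 (SE 0.0974, unadjusted p = 0.0691, limma adjusted p = 0.99), and a much dimmer probe set was at 0.11 (SE 0.540).

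Mcm4 and Mcm7 completed the measured ring. Mcm4 was at -0.30 (SE 0.204), with all Ts1Cje samples below the 2N median, the highest only just (28.2 against 28.3). Among replicates 1 and 2 Mcm4 was at -0.74, and among replicates 3 to 6 at -0.08. Mcm4 is a chromosome 16 gene on the centromeric side of Sod1, outside the extra copy, as is Cdc45. Mcm7 was at -0.07 (SE 0.107), 82.1 ± 12.2 against 77.5 ± 4.72 (SD, n = 6). The sixth ring gene, Mcm6, was under the brightness filter at 3.46 ± 2.29 and 3.41 ± 1.67. All 5 tested helicase genes lay below 0, with a median of -0.30 (18.9% lower). Their sign stayed below 0 in each of the 24 alternative analyses, and 0 of those analyses called any of them. When the filter was dropped and Mcm6 entered, 83.3% of the 6 lay below 0.

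**Figure D2:**
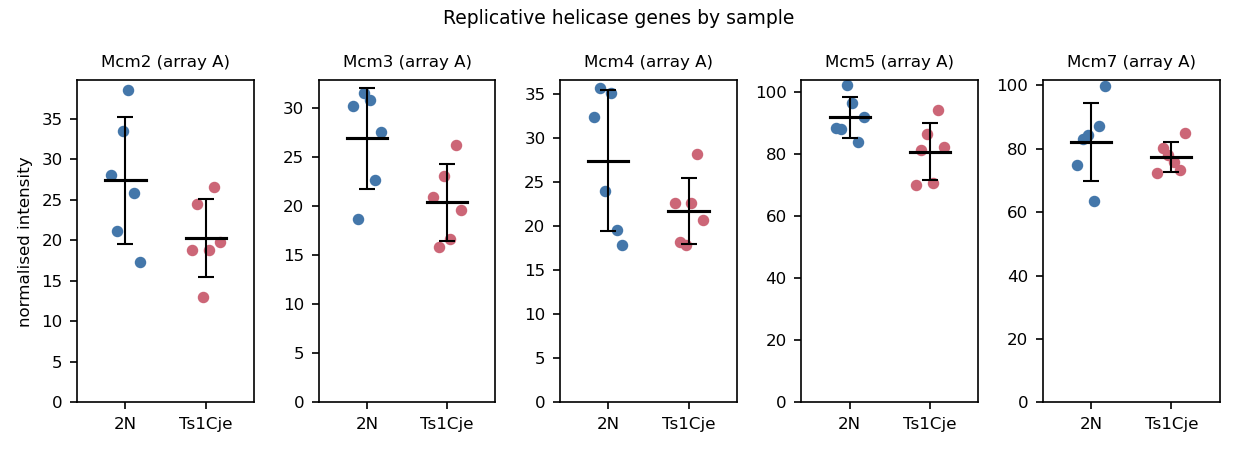
Normalised intensity (y axis, starting at 0, one scale per gene) of the 5 tested helicase genes in each 2N and Ts1Cje sample on array A. Points are samples, the long line is the mean and the bars are ± 1 SD (n = 6). The Ts1Cje mean is the lower one in each panel and the points of the genotypes overlap in each, from a log2 difference of -0.42 for Mcm2 to -0.07 for Mcm7.

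The other replication members scattered more. Tk1, the thymidine kinase of the nucleotide salvage pathway, was at -0.53 (SE 0.374), with a range of 12 to 39.9 in 2N and 9.08 to 41.5 in Ts1Cje, and 5 of 6 Ts1Cje samples below the 2N median. The helicase loader gene Cdc6 was at -0.30 (SE 0.424) and Cdc45 at -0.16 (SE 0.441), both dim. Pcna, the sliding clamp of the DNA polymerases, was brighter, at 73.6 ± 15.0 and 66.3 ± 7.75 (SD, n = 6), and differed by -0.14 (SE 0.131). Rrm2, the regulated subunit of ribonucleotide reductase, was at -0.07 (SE 0.170), next to 0.03 for its partner Rrm1. With replicates 1 and 2 taken alone 9 of the 11 replication members lay below 0, and with replicates 3 to 6 alone 10 did.

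Promoter sequences are shown for the 3 helicase genes with the smallest p and for 2 mitotic genes picked after their matches were seen, since the members of these 2 roles are switched on at different times. The windows are those of RefSeq on the GRCm38.p6 build, from 250 bases before to 50 bases after the start of the gene, printed along the gene's strand. Capitals mark matches on either strand to an E2F site (TTTCCCGC, TTTCGCGC, TTTGCCGC or TTTGGCGC), the CHR element TTTGAA or the CCAAT box, spellings chosen after the expression values were known. The E2F matches of both strands overlap in Mcm5. The Mcm2 window is chr6:88898731-88899030 (minus strand), that of Mcm3 is chr1:20820263-20820562 (minus strand), and that of Mcm5 is chr8:75109259-75109558 (plus strand). The Cdk1 window is chr10:69352863-69353162 and the Ccnb2 window is chr9:70421505-70421804, both on the minus strand.
Mcm2: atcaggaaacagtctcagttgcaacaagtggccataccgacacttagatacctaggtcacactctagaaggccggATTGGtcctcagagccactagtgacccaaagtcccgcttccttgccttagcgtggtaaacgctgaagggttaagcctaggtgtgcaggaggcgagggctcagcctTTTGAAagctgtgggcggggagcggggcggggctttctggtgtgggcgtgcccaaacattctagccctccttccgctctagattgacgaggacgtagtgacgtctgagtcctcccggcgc
Mcm3: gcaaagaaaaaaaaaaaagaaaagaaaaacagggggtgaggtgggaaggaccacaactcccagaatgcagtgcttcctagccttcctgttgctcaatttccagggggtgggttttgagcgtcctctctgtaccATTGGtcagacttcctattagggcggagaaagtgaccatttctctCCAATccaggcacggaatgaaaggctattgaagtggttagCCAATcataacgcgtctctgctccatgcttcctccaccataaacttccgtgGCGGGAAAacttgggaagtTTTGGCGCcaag
Mcm5: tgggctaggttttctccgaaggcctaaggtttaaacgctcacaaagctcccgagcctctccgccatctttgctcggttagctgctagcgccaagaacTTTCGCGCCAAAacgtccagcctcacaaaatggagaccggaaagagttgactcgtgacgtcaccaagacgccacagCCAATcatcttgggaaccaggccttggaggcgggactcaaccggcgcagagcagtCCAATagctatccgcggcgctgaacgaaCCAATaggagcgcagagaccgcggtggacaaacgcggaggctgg
Cdk1: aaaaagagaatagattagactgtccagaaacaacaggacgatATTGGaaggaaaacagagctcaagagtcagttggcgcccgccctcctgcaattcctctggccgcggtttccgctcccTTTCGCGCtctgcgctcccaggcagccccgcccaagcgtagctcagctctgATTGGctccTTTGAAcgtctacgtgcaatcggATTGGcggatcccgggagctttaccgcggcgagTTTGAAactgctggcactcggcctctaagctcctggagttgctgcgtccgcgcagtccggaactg
Ccnb2: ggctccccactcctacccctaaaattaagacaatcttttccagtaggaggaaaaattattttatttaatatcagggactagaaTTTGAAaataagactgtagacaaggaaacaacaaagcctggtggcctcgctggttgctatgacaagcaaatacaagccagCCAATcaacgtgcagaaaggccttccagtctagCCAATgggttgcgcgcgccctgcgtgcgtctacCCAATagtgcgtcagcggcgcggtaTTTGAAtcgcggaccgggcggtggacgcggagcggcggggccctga

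A window was present for 35 members. The Mcm3 and Mcm5 windows hold 2 E2F matches and 3 CCAAT boxes each and no CHR element. The Mcm2 window differs from them, with no E2F match, 1 CHR element and 1 CCAAT box. Of the 6 windows of helicase genes, 4 held an E2F match (those of Mcm3, Mcm5 and Mcm6 and 1 of the 2 of Mcm7), 1 the CHR element and 6 a CCAAT box. An E2F match was found in 5 of 13 windows of replication genes (38.5%) and in 1 of 12 windows of mitosis genes (8.33%, that of Cdk1), against 2.26% of all 32851 windows. The CHR element was found in 9 of 12 windows of mitosis genes (75.0%) and 2 of 13 of replication genes (15.4%), against 17.9% of all windows. The Cdk1 and Ccnb2 windows above hold 2 CHR matches each. CCAAT boxes stood in 12 of 12 windows of mitosis genes and 10 of 13 of replication genes (76.9%), against 37.4% of all. G1/S drivers had an E2F match in 1 of 7 windows, that of Cdk2, and the CDK inhibitors had none. These are letter matches in one window and show neither binding nor a role in the expression differences.

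Mitosis members centred close to 0. Of the 14 members 11 were tested on array A, 8 lay below 0 and 0 passed, with a median of -0.04. Ccna2, which encodes cyclin A2, the cyclin of S and G2 phase, ran from 52.9 over 61.2 to 74.5 in 2N and from 42.6 over 50.2 to 69.3 in Ts1Cje. 4 of 6 Ts1Cje samples lay below every 2N sample, and the remaining ones lay above the 2N median. The difference was -0.23 (SE 0.136, limma adjusted p = 0.99). Bub1, a kinase of the spindle checkpoint, was near the floor of the measurement, from 4.96 over 5.74 to 8.52 in 2N and from 1.47 over 4.44 to 7.27 in Ts1Cje, and differed by -0.63 (SE 0.458).

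Mki67, the gene of the proliferation marker Ki-67, pointed the other way. It ran from 4.43 over 11.6 to 18.9 in 2N and from 10 over 16.2 to 18.8 in Ts1Cje. The Ts1Cje samples filled the upper part of the 2N range, with 4 of 6 above its median. The difference of 0.46 (SE 0.343, limma adjusted p = 0.99) was -0.17 (SE 0.465) by a dimmer probe set, so the 2 Ki-67 readings have opposite signs.

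Several mitotic genes with well-measured probe sets differed little. Cdk1, the mitotic kinase, averaged 52.4 ± 5.94 (SD, n = 6) in 2N and 50.6 ± 7.88 in Ts1Cje, with a difference of -0.06 (SE 0.128). Its partner Ccnb2, cyclin B2, was at -0.0065 (SE 0.137, interval 0.815-fold to 1.22-fold). Cdc20, which activates the anaphase-promoting complex, was at -0.04 (SE 0.133), and Cenpa, the histone of centromeres, at -0.03 (SE 0.218). The kinase gene Plk1 was at 0.06 (SE 0.185), with dimmer probe sets at 0.32 and -0.18. The intervals of Cdk1, Ccnb2, Cdc20, Cenpa and, by its brightest probe set, Plk1 stayed within 1.5-fold.

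Dim mitotic members carried the widest errors. The topoisomerase gene Top2a was at -0.18 (SE 0.499), but 0.36 without Ts1Cje replicate 1, which was at 1.5. The Aurora kinase genes Aurka and Aurkb were at -0.62 (SE 0.648) and 0.15 (SE 0.554), and Aurkb was -0.54 without replicates 1 and 2. On array B, Cenpe, a kinesin of the kinetochore, ran from 2.81 over 6.36 to 7.28 in 2N and from 6.65 over 7.91 to 13.0 in Ts1Cje. All 6 Ts1Cje samples lay above the 2N median and 4 above every 2N sample. Its difference of 0.68 (SE 0.317, interval 0.01 to 1.35) had an unadjusted limma p of 0.0459 and an adjusted p of 0.996. The 2 Cenpe probe sets of array A were too dim to test. The brighter averaged 3.56 ± 2.60 (SD, n = 6) in 2N and 2.27 ± 1.06 in Ts1Cje. The other averaged 2.28 ± 1.98 in 2N and 2.70 ± 1.72 in Ts1Cje. Bub1b, the checkpoint gene BubR1, was at 0.26 (SE 0.219) on array B.

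**Figure D3:**
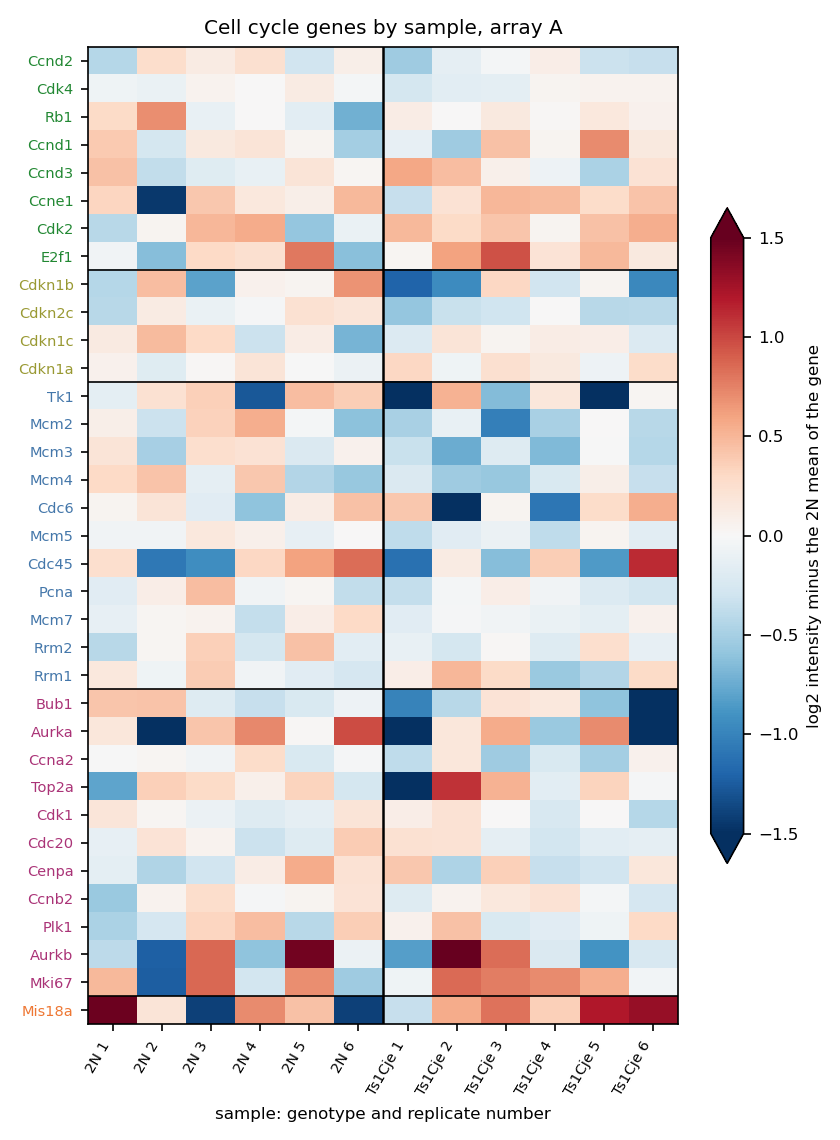
Normalised log2 intensity of each array A member (rows, coloured names by role as in the plot of differences) in each of the 12 samples (columns), minus the mean of the gene's 2N samples. Red is above and blue below that mean, and colours end at 1.5 on the log2 scale. The helicase rows are mostly blue in Ts1Cje, while dim rows such as Aurka, Aurkb and Mis18a vary strongly within both genotypes.

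The sign of the mitosis members differed between subsets of the replicates. Replicates 1 and 2 were set against 3 to 6 because earlier work on these data had set them apart. No label names such a division. In replicates 3 to 6 alone 9 of the 11 array A mitosis members lay below 0, with a median of -0.18. In replicates 1 and 2 alone 3 of 11 did, with a median of 0.18. The difference between these subsets was not tested. All 5 tested helicase genes lay below 0 in both subsets, with medians of -0.17 and -0.22. Across the 34 disomic members, Ts1Cje replicate 1 gave the lowest of the 12 values for 7 and 2N replicate 2 for 6.

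Members showed little common variation from sample to sample. After each genotype's mean was removed, the median pairwise Pearson correlation was 0.02 over the 561 pairs of disomic array A members and -0.0015 over all probe sets, across the same 12 samples. It was 0.09 among mitosis members and 0.11 among the 5 helicase genes. These are descriptions over few samples that share their normalisation.

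Among members of the trisomic segment, Donson, which helps to assemble the active helicase at replication origins, was the one member whose groups did not overlap. Its intensities on array B were 11.6, 13.4, 15.8, 16.2, 17.5 and 18.9 in the 2N samples, in rising order. In Ts1Cje they were 20.7, 20.8, 21.2, 22.6, 22.8 and 24.4. Every Ts1Cje sample lay above every 2N sample, as was so for 0.193% of all array B probe sets, and for 0.0537% in the other direction. The log2 difference was 0.52 (SE 0.153, interval 0.20 to 0.84), a fold of 1.43, with an unadjusted limma p of 0.00316 and an adjusted p of 0.928, so it did not pass. The exact permutation p of 0.0022 is the smallest that 6 samples against 6 can give and was 0.876 after adjustment over all probe sets. The interval holds the log2 ratio of 0.58 that 3 copies against 2 would give. Replicates 3 to 6 were at 0.69 and replicates 1 and 2 at 0.19.

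Mis18a, needed to place Cenpa at centromeres, was too dim to resolve. It ran from 1.47 over 4.86 to 10.8 in 2N, where 2 samples were at the floor, and from 3.05 over 6.27 to 9.62 in Ts1Cje. 5 of 6 Ts1Cje samples were above the 2N median, and the 2N range covered the whole Ts1Cje range. The difference of 0.65 (SE 0.550, limma adjusted p = 0.99) has an interval of 0.702-fold to 3.499-fold. Chaf1b, a segment gene that is no member and encodes a subunit of the factor that places histones on new DNA, ran from 12.9 over 18.2 to 26.1 in 2N and from 18.4 over 24.5 to 27.5 in Ts1Cje. All 6 Ts1Cje samples lay above the 2N median, and it differed by 0.43 (SE 0.204, unadjusted p = 0.0517, limma adjusted p = 0.99).

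**Figure D4:**
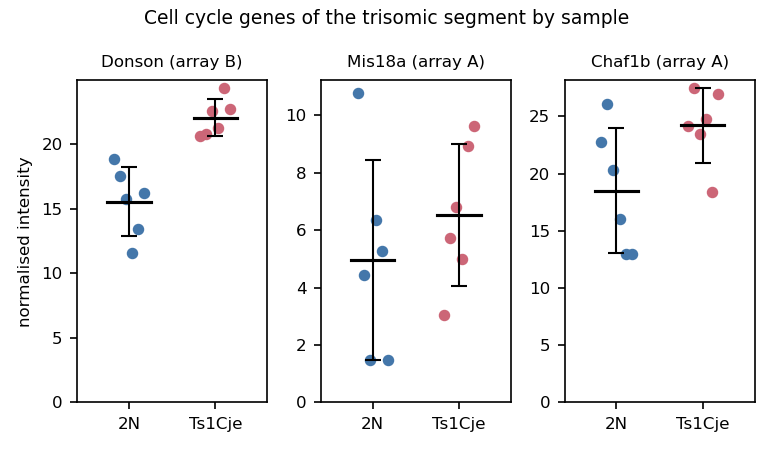
Normalised intensity (y axis, starting at 0, one scale per gene) of the cell cycle genes of the trisomic segment in each 2N and Ts1Cje sample. Points are samples, the long line is the mean and the bars are ± 1 SD (n = 6). Donson is the one gene whose Ts1Cje samples (20.7 to 24.4) all lie above its 2N samples (11.6 to 18.9).

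Other genes of the same processes did not pass either. On array A 0 of 19 further G1/S genes passed and 9 lay below 0, with Cks1b, a CDK-binding protein gene, at -0.27 (SE 0.141) and Tfdp1, the E2F partner, at 0.27 (SE 0.140). Among 33 further replication genes 0 passed and 18 lay below 0, with a median of -0.04. On array A this list, which holds origin, polymerase and clamp-loader genes, thus stayed nearer to 0 than the replication members at -0.19. That contrast was not tested. Its smallest p-values belonged to Mcm10, at -1.12 (SE 0.6254), and to the histone chaperone gene Nasp, at -0.37 (SE 0.225). Among 40 further mitosis genes 25 lay below 0, with a median of -0.06. Rad21, a cohesin subunit, was at -0.22 (SE 0.0910, unadjusted p = 0.0296, limma adjusted p = 0.99) and the checkpoint gene Mad2l1 at -0.51 (SE 0.273).

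On array B the further genes also gave 0 calls. Of 10 G1/S genes 2 lay below 0, and Cdk7 was at 0.27 (SE 0.135) and E2f3 at 0.28 (SE 0.145). Of 5 replication genes 3 lay below 0, and their median of -0.23 was further from 0 than that of the array A list (-0.04). The polymerase gene Pole was at -0.23 (SE 0.117) and the origin gene Orc3 at -0.29 (SE 0.193). Of 18 mitosis genes 12 lay below 0, with Cdc23, a subunit of the anaphase-promoting complex, at -0.97 (SE 0.394, unadjusted p = 0.0239, limma adjusted p = 0.996) and the kinetochore gene Nuf2 at -0.43 (SE 0.212).

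Cell type markers gave the tissue context. The neuronal markers Tubb3, Stmn2 and Dcx and the progenitor and radial glia marker Fabp7 had array A means of 2739, 1867, 798 and 1087. The other neuronal markers there had means from 47.0 (Nefl) to 779 (Gap43). Those of the other tested progenitor markers were lower than that of Fabp7, from 7.19 (Neurog2) to 132 (Sox2). Of the cerebellar granule precursor markers, Zic1 (306), Neurod1 (32.0), Zic2 (28.3) and Gli1 (16.6) were bright enough to test and Atoh1 was not. Of the mature oligodendrocyte markers, Mbp (35.4) and Mag (17.4) were tested, and Mog was at the floor in 9 of 12 samples.

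No marker passed on either array. On array A 4 of 10 neural progenitor markers lay below 0, with a median of 0.0025, and their summed intensity ran from 1317 to 1633 in 2N and from 1327 to 1574 in Ts1Cje. The 8 neuronal markers lay above 0 there, with a median of 0.06 and sums of 5989 to 6791 in 2N and 6542 to 7310 in Ts1Cje. On array B 2 of 3 tested neuronal markers lay below 0, with a median of -0.03 and sums of 1072 to 1224 in 2N and 970.9 to 1237 in Ts1Cje, and Syt1 and Map2 differed in sign between the arrays. Erythroid markers on array A, of which 4 of 4 tested lay below 0 with a median of -0.38, had sums of 938 to 1517 in 2N and 1017 to 1182 in Ts1Cje.

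The other marker lists on array A had medians of 0.01 (granule precursor, 4 tested), -0.06 (oligodendrocyte lineage, 4), 0.12 (astrocyte, 5), -0.16 (microglia, 6), 0.18 (endothelial, 7), -0.09 (meninges and fibroblast, 6) and 0.36 (choroid plexus, 3). On array B the 3 oligodendrocyte lineage markers lay above 0, with a median of 0.46 and sums of 73.6 to 109 in 2N and 95.4 to 133 in Ts1Cje. The other array B lists had medians of 0.30 (granule precursor, 1 tested), 0.03 (astrocyte, 3), -0.42 (endothelial, 2) and 0.42 (choroid plexus, 1). 4 marker readings had an unadjusted limma p under 0.05. Sox10, an oligodendrocyte lineage factor, was at 0.46 on array B (SE 0.130, unadjusted p = 0.00227, limma adjusted p = 0.918), with all 6 Ts1Cje samples above the 2N median, and at -0.06 (SE 0.1705) on array A. Glul, the astrocyte glutamine synthetase gene, was at 0.38 (SE 0.142, unadjusted p = 0.0169, limma adjusted p = 0.99) on array A and at 0.19 (SE 0.139) on array B. The choroid plexus marker Clic6 was at 0.42 on array B (SE 0.1555, unadjusted p = 0.0143, limma adjusted p = 0.996). The endothelial marker Flt1 was at -1.07 on array B (SE 0.383, unadjusted p = 0.0116, limma adjusted p = 0.996) and at -0.09 (SE 0.311) on array A. The part of these markers in the values of the cell cycle genes was not tested. Whether a marker gene lies in the trisomic segment was not looked up, for Clic6 and the oligodendrocyte lineage marker Olig2 among others. The part of copy number in the marker values was therefore not tested either. RNA integrity, read as the ratio of actin signal at the 3' end to that at the 5' end, was 1.18 ± 0.138 and 1.18 ± 0.0660 (SD, n = 6) on array A.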

How the data were processed

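Brain RNA of 12 samples per array design was measured, and the authors deposited intensities on a linear scale, 1 per probe set and array. The software, scaling and probe summary are not given in the sources used here. Every value column was mapped to a sample. The highest 2% trimmed mean of a table was 2.10 times the lowest (array A) or 1.86 times (array B), so each table was quantile normalised. Values under the 10th percentile (1.47 and 1.13) were set to it, log2 was taken, and the dimmest probe sets, whose mean lay under the 25th percentile, were left untested, which kept 9316 and 9308. The test was limma 3.58.1 in R 4.3.3 (lmFit, eBayes with a mean-variance trend), Ts1Cje against 2N, with Benjamini-Hochberg adjustment within a table and a threshold of 0.05. Array designs were tested apart, and levels of different probe sets were not compared. A gene was read from its brightest probe set naming it alone, and probe sets with several symbols were not named. The floor can shrink differences of dim genes, the mean-variance trend changes only standard errors and p-values, and the number of arrays limits the precision. Errors are SD for intensities and standard errors of the limma fit for log2 differences.

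The members and all lists were chosen with earlier results of these data known, so no p is given for a list. Members with a probe set were named. Samples' values were given for Donson, Mis18a, the 3 members with the smallest p in each role on array A and 2 on array B. Of other pathway genes, Chaf1b and the 2 with the smallest p per list were named. Same-numbered samples of the genotypes correlated in their deviations by 0.02 to 0.08 (array A) and 0.01 to 0.11 (array B), so the numbers were not taken as pairs. The script was tested on simulated data. Promoter windows came from RefSeq (GRCm38.p6), and that annotation was otherwise used only for names, chromosomes and gene order.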

Additional observations from a re-analysis of the deposited data

Results flagged for a closer look

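In 7 of the 80 groups of 6 samples checked (8.75%), 1 sample stood far below the others by Dixon's criterion, which flags about 1 in 20 groups by chance. The criterion was applied to log2 values after the floor, a scale that stretches low intensities and compresses high ones. On that scale no sample was flagged for standing above. The aurora kinase gene Aurka was at 1.47, the floor of the table, in 2N replicate 2, with the next sample at 7.35. The cyclin B2 gene Ccnb2 was at 43.9 in 2N replicate 1, with the next at 63.9. Ccne1, the cyclin E1 gene, was flagged in both genotypes, at 17.4 in 2N replicate 2 (next 50.5) and at 37.3 in Ts1Cje replicate 1 (next 55.1). The thymidine kinase gene Tk1 was at 12 in 2N replicate 4, with the next at 26.3. The topoisomerase gene Top2a was at 1.5 in Ts1Cje replicate 1, with the next at 9.58. On array B the checkpoint gene Bub1b was at 7.74 in Ts1Cje replicate 1, with the next at 11.0. Of these 7 flags 3 fell on Ts1Cje replicate 1 and 2 on 2N replicate 2.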

How the results depend on the processing

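The 24 alternatives per array changed the normalisation, floor, filter, variance model, array weights and gene summary, added a replicate block, or left out samples. They called 0 members on either array, and 0 of 946 single-member fits passed; Mcm2, Mcm3, Mcm4, Mcm5, Mcm7 and Donson kept their sign in each. The replicate block, for numbers that are each sample's best match in 3 of 6 cases (array A) and 2 of 6 (array B), also gave 0 calls. The count of array A members lower at an unadjusted p under 0.05 (2) was 0 without normalisation, with trimmed-mean scaling or without replicates 1 and 2, and 1 with the floor at the 25th percentile, the replicate block or the mean over probe sets; leaving out 1 sample it ran from 0 to 3. The count higher on array B (2) was 1 with no filter, with the filter at the 50th percentile or without replicates 1 and 2, and ran from 1 to 2 leaving out 1 sample. Donson stayed in this count throughout. The CDK inhibitor median was 0.0064 with the filter at the 50th percentile, where fewer genes were tested, and the replication median ran from -0.33 to -0.15 leaving out 1 sample. Single members changed sign in 60 fits and 20 of 40 results never did. By more than the standard error, signs turned with the mean over probe sets for Ccnd1 (-0.11), Cdk4 (0.079) and Cdkn1a (-0.11); without replicates 1 and 2 for Ccnd3 (-0.047 on array A, 0.053 on array B), Aurkb (-0.54), Plk1 (-0.22) and Cdk6 (-0.042); without 2N replicate 2 for Ccne1 (-0.033, up to 0.38 leaving out another sample); and without Ts1Cje replicate 1 for Top2a (0.36, down to -0.43 leaving out another). Apart from the tested gene number, the cause was not tested. Without normalisation the median of all probe sets moved to -0.06 on array A and 0.05 on array B. For members near the floor the signal limits what can be seen.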
